A study of Rattus norvegicus with 9 samples.

Results

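The miRNAs described here are the 7 mature forms of miR-210, miR-26a, miR-26b, miR-103 and miR-107 that were counted by small RNA sequencing of rat retina, out of 465 mature miRNAs in all. They were chosen by name, as every arm or copy of these 5 miRNAs in both deposited tables: rno-miR-210-3p, rno-miR-210-5p, rno-miR-26a-5p, rno-miR-26b-5p, rno-miR-26b-3p, rno-miR-103-3p and rno-miR-107-3p, written below without the species prefix. The retinas came from wild-type Sprague Dawley rats in 3 groups of 3 libraries: sham at postnatal day 14 (sham P14), oxygen-induced retinopathy (OIR) at day 14 (OIR P14) and the same model at day 29 (OIR P29). In OIR, altered oxygen early in life arrests the growth of retinal vessels, and abnormal vessels follow, as in retinopathy of prematurity. No source used here gives the oxygen schedule or the number of animals behind a library, and a p-value here covers only the variation among libraries, which may be technical. The labels hold no sham group at day 29.

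A miRNA guides the silencing complex to messenger RNAs that pair with its seed, the bases at positions 2 to 8 from its 5′ end. miR-210 is transcribed under hypoxia-inducible factor (HIF) in most mammalian cells studied, and its known targets include the iron-sulfur cluster scaffold gene ISCU and the ephrin gene EFNA3, which tie it to mitochondrial respiration and to vessel growth. The miR-26 family restrains cell-cycle genes and, in mouse and human endothelial cells, targets SMAD1, a signal carrier for vessel growth. miR-103 and miR-107 target DICER1, the enzyme that makes miRNAs, and miR-107 targets ARNT, the partner of HIF, in human cells. The latter families have also been reported as raised by hypoxia in cultured tumour cells.

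The mature sequences are shown because 2 pairs among the 7 share a seed and differ by few bases, which bears on how far their counts can be told apart. RefSeq entries for the rat assembly GRCr8 matched 7 of 7 names, and capitals mark the seed.
miR-210-3p: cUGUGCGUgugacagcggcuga
miR-210-5p: aGCCACUGcccacagcacacug
miR-26a-5p: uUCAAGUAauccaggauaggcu
miR-26b-5p: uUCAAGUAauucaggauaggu
miR-26b-3p: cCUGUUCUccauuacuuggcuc
miR-103-3p: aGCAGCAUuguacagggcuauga
miR-107-3p: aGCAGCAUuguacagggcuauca
miR-26a-5p and miR-26b-5p share the seed UCAAGUA and differ by 2 substitutions, C11U and C21U (positions from the 5′ end, the base of miR-26a-5p first), with lengths of 22 and 21 bases. miR-103-3p and miR-107-3p share the seed GCAGCAU and differ by 1 substitution, G22C, next to the 3′ end. No source used here gives the mismatch rule of the authors' counting, so reads of miR-103-3p and miR-107-3p cut short at the 3′ end could have been given to either, and the split of counts within this pair is uncertain. miR-26a-5p and miR-26b-5p differ also at position 11, within the miRNA. No other miRNA of the RefSeq table had the seed of any of the 7.

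The precursor hairpins are shown for miR-210, whose arms were both counted, and for miR-103 and miR-107, because miR-103-3p comes from 2 loci with the same mature sequence. Capitals mark the mature miRNAs counted here.
Mir210: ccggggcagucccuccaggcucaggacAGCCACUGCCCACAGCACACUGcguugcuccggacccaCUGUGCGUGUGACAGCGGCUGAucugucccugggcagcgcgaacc
Mir103a1: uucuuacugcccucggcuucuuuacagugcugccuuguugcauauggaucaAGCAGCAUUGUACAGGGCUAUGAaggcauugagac
Mir103a2: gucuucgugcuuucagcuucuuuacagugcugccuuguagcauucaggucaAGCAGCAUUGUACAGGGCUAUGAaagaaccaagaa
Mir107: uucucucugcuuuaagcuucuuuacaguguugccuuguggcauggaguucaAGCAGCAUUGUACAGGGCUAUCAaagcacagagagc
In GRCr8, Mir210 lies at chr1:205755923-205756032 on the minus strand, within the span of the long non-coding RNA gene LOC102553043. On the opposite strand at the same place RefSeq lists Mir3574, whose mature miRNA is the reverse complement of miR-210-3p. miR-3574 is not among the miRNAs counted, and no source used here says whether the counting used strand. Mir103a1 (chr10:20748474-20748559, plus strand) lies within the span of Pank3, Mir103a2 (chr3:138963227-138963312, plus strand) within Pank2 and Mir107 (chr1:241750418-241750504, minus strand) within Pank1, genes for pantothenate kinases, which start coenzyme A synthesis. Mir26a (chr8:127633048-127633137, plus strand) and Mir26b (chr9:83425709-83425793, plus strand) lie within Ctdspl and Ctdsp1, genes for small phosphatases that act on RNA polymerase II. Exon limits of these hosts were not analysed here.

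Total counts per library ran from 11808893 to 15260603 over the 465 miRNAs. The columns carry library codes only (25, 27 and 51 for sham P14, 11, 12 and 38 for OIR P14, and 20, 21 and 47 for OIR P29), and the groups were deduced from the tables in which a code stands. In any group of 3 there is a library farther from the others than those are from each other. By chi-square per degree of freedom this was library 27 for sham P14 (222.7 and 228.6 against 154.2). It was library 38 for OIR P14 (139.6 and 122 against 93.4) and library 47 for OIR P29 (183.6 and 107.5 against 77.4). The photoreceptor miRNAs miR-182, miR-183-5p and miR-96-5p, which mark retina, took 69.2% to 71.4% of a library's counts for sham P14, 72.6% to 75.2% for OIR P14 and 66.3% to 67.6% for OIR P29, separate in all 3 groups with OIR P14 highest. Their part in the levels of the 7 miRNAs was not tested. Markers of lens and cornea (3 of 3 measured) summed to 27.6 to 148 CPM for sham P14, 36.5 to 69.6 for OIR P14 and 24.6 to 1943 for OIR P29, the highest through miR-184 in library 47, with 29727 reads against 190 and 510 in libraries 20 and 21. CPM stands for counts per 1e6 reads of a library, scaled by TMM over the 9 libraries. In CPM, unlike in percent of counts, the photoreceptor sums of sham P14 (674962 to 736675) and OIR P14 (720036 to 886389) overlapped.

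At day 14 none of the 7 passed the test between retinopathy and sham retina (edgeR quasi-likelihood F test, Benjamini-Hochberg adjusted p under 0.05), where 1.69% of 415 miRNAs were called. DESeq2 and limma-voom also called 0 of the 7. The nearest was miR-210-3p, the HIF target, which was 1.26 times lower in OIR P14: it alone of the 7 had an unadjusted edgeR p under 0.05, where 9.16% of all miRNAs did, and it alone had groups that did not overlap in CPM, where 15.2% did. At day 29, miR-210-3p, miR-26a-5p, miR-26b-5p and miR-107-3p were higher in OIR P29 than in OIR P14, 4 of 7 where 22.9% of 424 miRNAs were called higher and 46.7% in either direction, while miR-103-3p, miR-210-5p and miR-26b-3p were not called. The same 4 were also called higher in OIR P29 than in sham P14, where 18.4% of 425 miRNAs were and 40.2% were called in either direction. The groups of these 4 did not overlap in CPM in either comparison, as was so for 57.3% and 54.8% of all miRNAs. Age and stage of the model cannot be told apart in the comparisons with day 29. The 3 comparisons share libraries pairwise.

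**Figure D1:**
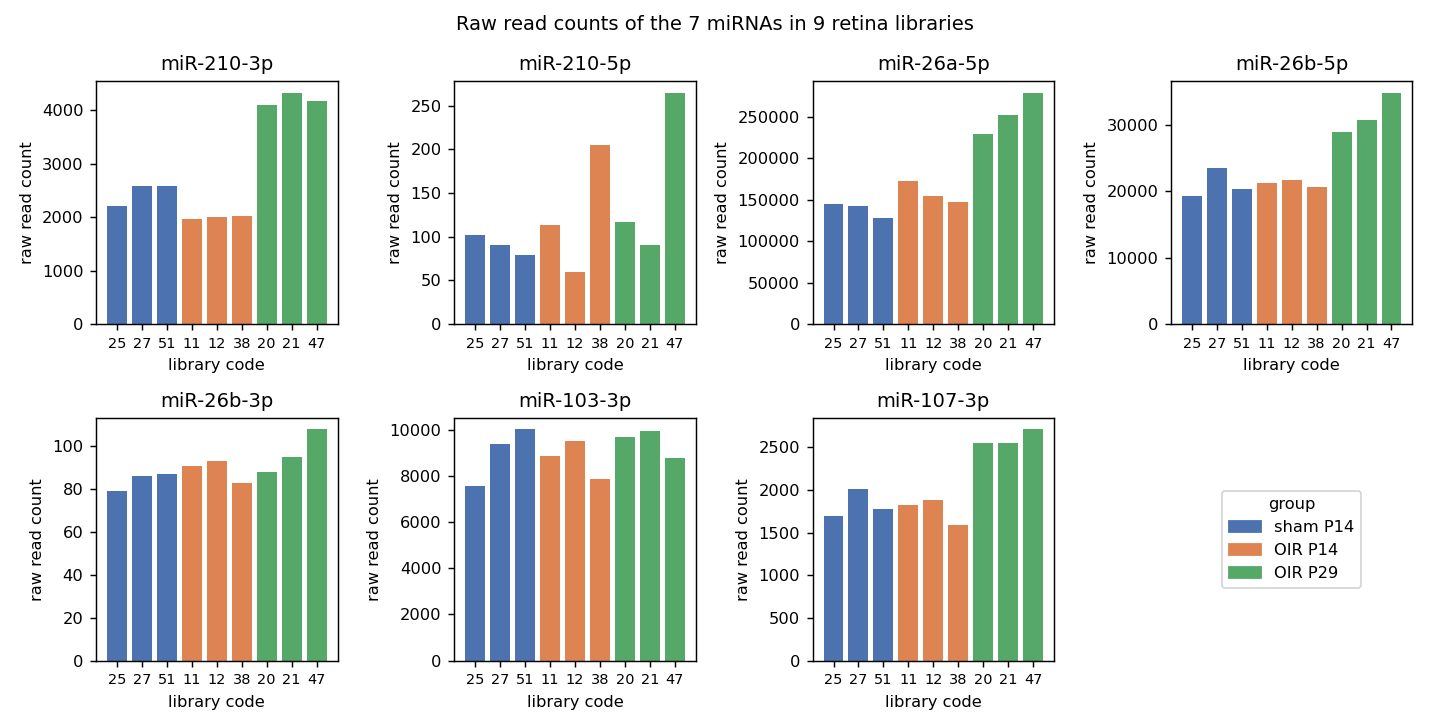
Raw read counts of each of the 7 miRNAs (vertical axis, from 0, own scale per panel) in each of the 9 libraries (horizontal axis, library codes; colours give the group). miR-210-3p stands between 4107 and 4331 reads in the 3 OIR P29 libraries and between 1966 and 2581 in the other 6, while miR-103-3p shows no such step and miR-210-5p is high in libraries 38 and 47.

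miR-210-3p had 2201, 2581 and 2576 reads for sham P14 libraries 25, 27 and 51, 1966, 1994 and 2022 reads for OIR P14 libraries 11, 12 and 38, and 4107, 4331 and 4181 reads for OIR P29 libraries 20, 21 and 47. All 3 groups were separate, with OIR P14 lowest and OIR P29 highest, and the OIR P14 libraries lay closest together. Scaled to depth, the level was 198.8 ± 9.11 CPM for sham P14, 155.4 ± 3.07 for OIR P14 and 289.7 ± 15.9 for OIR P29 (SD, n = 3 each). It ranked 63rd to 84th of the 465 miRNAs in a library, so that many miRNAs were more abundant.

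The difference of miR-210-3p between OIR P14 and sham P14 came to a log2 fold of -0.33 ± 0.10 (SE, 95% interval -0.55 to -0.11). It did not pass the test after adjustment (edgeR unadjusted p = 0.00846, adjusted p = 0.208), and the adjusted p ran from 0.0657 to 0.651 over 12 alternatives, of which the lowest came from library totals alone. That scaling gave a log2 fold of -0.51 and moved the median of all miRNAs from -0.03 to -0.21. The authors' deposited table gave miR-210-3p a log2 fold of -0.36 with a false discovery rate of 0.0668, also short of 0.05.

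From OIR P14 to OIR P29, miR-210-3p rose 1.84-fold, a log2 fold of 0.88 ± 0.08 (SE, 95% interval 0.70 to 1.05, edgeR adjusted p = 0.000125). This was the 17th smallest p among the 424 miRNAs tested. The log2 fold stayed between 0.87 and 1.14 over 13 alternatives, all of them past the threshold, and was 0.91 without libraries 38 and 47. Against sham P14 the rise was 1.49-fold (log2 fold 0.57 ± 0.10 SE, edgeR adjusted p = 0.00224). The authors' deposited table gave 0.90 for the log2 fold of OIR P29 against OIR P14, with a false discovery rate of 2.17e-05.

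Markers of vessels and blood had their lowest sums in the OIR P14 libraries as well. The endothelial markers miR-126a-3p and miR-126a-5p (2 of 2 measured) summed to 630 to 728 CPM for sham P14, 165 to 304 for OIR P14 and 480 to 535 for OIR P29. Mural cell markers (2 of 2 measured) summed to 1156 to 1288, 297 to 603 and 1475 to 1541 CPM in the same order, red blood cell markers (3 of 3) to 4.29 to 9.96, 1.78 to 2.26 and 12.8 to 21.6 CPM, and leukocyte markers (3 of 3) to 21.9 to 29.4, 8.35 to 12.4 and 38.9 to 39.5 CPM. None of these markers was at 0 in any library. Like miR-210-3p, the mural, red cell and leukocyte sums were separate in all 3 groups, with OIR P29 highest. The endothelial sums were also separate, but highest in sham P14. Retinal neuron markers, miR-124-3p and miR-9a-5p, overlapped over the groups, at 14417 to 16186 CPM for sham P14, 13909 to 17021 for OIR P14 and 14069 to 15003 for OIR P29. The part of these cell types in the levels of miR-210-3p was not tested. In whole retina fewer cells of a type and less RNA per cell cannot be told apart.

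miR-210-5p, the opposite arm of the same hairpin and usually the discarded strand, was scarce. It had 102, 90 and 79 reads for sham P14 (7.38 ± 1.35 CPM), 113, 59 and 205 reads for OIR P14 (9.79 ± 5.77 CPM) and 117, 91 and 265 reads for OIR P29 (10.7 ± 5.77 CPM; SD, n = 3 each). The high values were those of libraries 38 and 47, and the groups overlapped. Its log2 fold was 0.45 ± 0.39 (SE, edgeR adjusted p = 0.736) for OIR P14 against sham P14, 0.11 ± 0.50 (0.862) for OIR P29 against OIR P14 and 0.56 ± 0.34 (0.222) for OIR P29 against sham P14. Single libraries turned the first of these folds (-0.11 without library 38) and the second (-0.22 without library 12 and -0.38 without library 47, against 0.65 without library 38). The third was 0.10 without library 47, and without OIR P29 library 21 the log2 fold was 0.92 with an edgeR adjusted p of 0.0406.

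The ratio of the miR-210 arms spread widely within groups. miR-210-3p had 21.6, 28.7 and 32.6 reads per read of miR-210-5p in sham P14, 17.4, 33.8 and 9.86 for OIR P14, and 35.1, 47.6 and 15.8 for OIR P29. This ratio within a library does not depend on depth or scaling, and its lowest values were those of libraries 38 and 47. The groups overlapped, and the exact permutation test over libraries (2-sided, 3 against 3, smallest possible p 0.1) gave p = 0.4 for OIR P14 against sham P14, 0.4 for OIR P29 against OIR P14 and 0.8 for OIR P29 against sham P14. All 410 miRNAs tested in every comparison were therefore looked at in libraries 38 and 47, a check chosen after the miR-210-5p values were seen. miR-210-5p lay 2.40-fold above the mean CPM of the other libraries of its group in library 38 and 2.33-fold above it in library 47. At a threshold of 2-fold it was the only 1 of 410 miRNAs to do so in both, with 4 past the threshold in library 38 and 7 in library 47, while 1 other, miR-505-5p, lay more than 2-fold below in both.

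**Figure D2:**
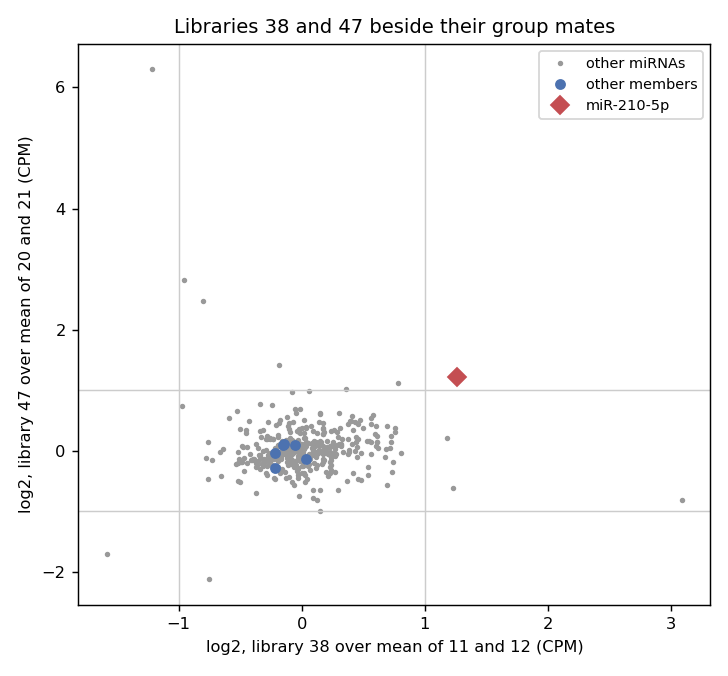
For each of 410 miRNAs, the log2 ratio of CPM in library 38 to the mean of OIR P14 libraries 11 and 12 (horizontal axis) and of library 47 to the mean of OIR P29 libraries 20 and 21 (vertical axis); grey lines mark 2-fold. miR-210-5p (red diamond) is alone in the upper right corner, while the other 6 members (blue) lie near 0, and the topmost point is miR-184. Libraries 38 and 47 were picked after the miR-210-5p values were seen.

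miR-26a-5p was by far the most abundant of the 7, ranking 4th to 6th of the 465 miRNAs in a library. It had 144299, 141750 and 127515 reads for sham P14, 173043, 154209 and 146697 for OIR P14 and 228769, 251884 and 279083 for OIR P29. Raw counts were highest in OIR P29, with no overlap, and the OIR P14 counts lay above those of sham P14. Once scaled, both day 14 groups overlapped, at 11226 ± 1221 CPM for sham and 12304 ± 978 for OIR, and OIR P29 stood at 17384 ± 779 (SD, n = 3 each). Its log2 fold in OIR P14 against sham P14 was 0.16 ± 0.10 (SE, 95% interval -0.08 to 0.40, edgeR adjusted p = 0.618) and turned to -0.02 with library totals alone. From OIR P14 to OIR P29 it rose 1.39-fold (log2 fold 0.47 ± 0.09 SE, edgeR adjusted p = 0.00381), and from sham P14 to OIR P29 1.58-fold (0.66 ± 0.10, adjusted p = 0.00124). Markers of pigment epithelium, miR-204-5p and miR-211-5p (2 of 2 measured, none at 0), summed to 12362 to 19708 CPM for sham P14, 18390 to 23989 for OIR P14 and 31153 to 35605 for OIR P29, again highest at day 29. Their part in the members' levels was not tested.

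miR-26b-5p, the copy with the same seed from the Ctdsp1 locus, had 19272, 23601 and 20349 reads for sham P14, 21244, 21680 and 20601 for OIR P14 and 28923, 30830 and 34924 for OIR P29. The sham P14 and OIR P14 counts overlapped, and OIR P29 lay above both. Its levels were 1707 ± 66.2, 1649.7 ± 45.1 and 2167 ± 90.0 CPM in that order (SD, n = 3 each). The log2 fold was -0.02 ± 0.08 (SE, 95% interval -0.20 to 0.16, edgeR adjusted p = 0.939) at day 14. It rose 1.29-fold from OIR P14 to OIR P29 (log2 fold 0.37 ± 0.07 SE, edgeR adjusted p = 0.0041) and 1.29-fold from sham P14 to OIR P29 (0.37 ± 0.09, adjusted p = 0.00933).

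Together the seed UCAAGUA of the miR-26 family was carried by 12932 ± 1213 CPM for sham P14, 13953 ± 987 for OIR P14 and 19551 ± 864 for OIR P29 (SD, n = 3 each). miR-26b-5p made up 13.3% ± 1.32 of that sum in sham P14, 11.9% ± 0.80 for OIR P14 and 11.1% ± 0.163 for OIR P29 (SD, n = 3 each). miR-26a-5p had 7.49, 6.01 and 6.27 reads per read of miR-26b-5p in sham P14, 8.15, 7.11 and 7.12 for OIR P14 and 7.91, 8.17 and 7.99 for OIR P29. The ratio was 1.22 times higher in OIR P29 than in sham P14 without overlap (exact permutation test, p = 0.1, the smallest this design allows), and the neighbouring groups overlapped (p = 0.3 for each).

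miR-26b-3p, the passenger arm of the miR-26b hairpin, was not called in any comparison. It had 79, 86 and 87 reads for sham P14, 91, 93 and 83 for OIR P14 and 88, 95 and 108 for OIR P29, or 6.82 ± 0.30, 6.93 ± 0.41 and 6.66 ± 0.325 CPM (SD, n = 3 each). All 3 groups overlapped in CPM. Its log2 fold in OIR P29 against OIR P14 was -0.08 ± 0.13 (SE, 95% interval -0.38 to 0.22, edgeR adjusted p = 0.64), positive with library totals alone (0.19). The 5p arm had 234 to 274 reads per read of the 3p arm in sham P14, 233 to 248 for OIR P14 and 323 to 329 for OIR P29. This ratio was 1.37 times higher in OIR P29 than in OIR P14 and 1.30 times higher than in sham P14, in both cases without overlap and at the smallest exact permutation p the design allows, 0.1. The ratio rests on fewer than 110 reads of the 3p arm per library.

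**Figure D3:**
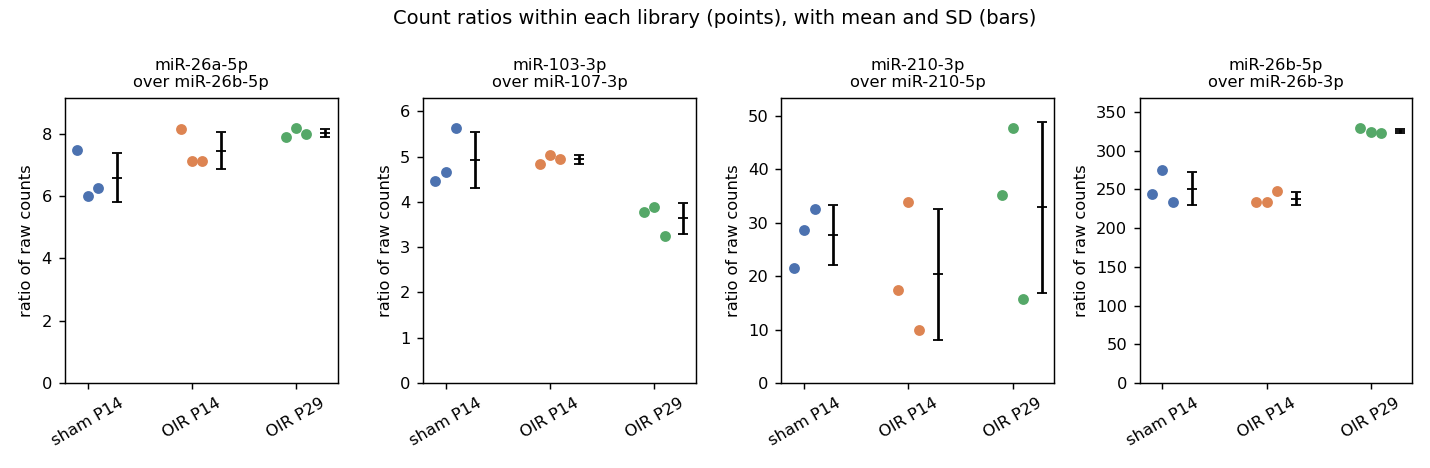
Ratios of raw counts within each library (points, 3 per group, vertical axes from 0) for miR-26a-5p over miR-26b-5p, miR-103-3p over miR-107-3p, miR-210-3p over miR-210-5p and miR-26b-5p over miR-26b-3p; horizontal dashes with bars are the mean ± SD. OIR P29 lies apart from both day 14 groups for miR-103-3p over miR-107-3p (3.24 to 3.89) and for the arms of miR-26b (323 to 329).

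Of miR-103-3p and miR-107-3p, which differ by 1 base, the latter alone was called at day 29. The split of counts within this pair is uncertain, as said with the sequences. miR-107-3p had 1694, 2009 and 1782 reads for sham P14, 1827, 1884 and 1592 for OIR P14 and 2556, 2556 and 2711 for OIR P29, with OIR P29 above every day 14 library. Its levels were 148 ± 3.40, 137.7 ± 12.01 and 179 ± 4.94 CPM in that order (SD, n = 3 each). It rose 1.28-fold from OIR P14 to OIR P29 (log2 fold 0.36 ± 0.10 SE, edgeR adjusted p = 0.0185), with an adjusted p from 0.00109 to 0.0237 over 13 alternatives. Against sham P14 the log2 fold was 0.30 ± 0.10 (SE, edgeR adjusted p = 0.0395). That call was lost without sham P14 library 25 (log2 fold 0.30, edgeR adjusted p = 0.0833), without sham P14 library 51 (0.26, 0.0811) and without OIR P29 library 20 (0.25, 0.156). At day 14 the log2 fold was -0.08 ± 0.10 (SE, 95% interval -0.31 to 0.15, edgeR adjusted p = 0.836).

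miR-103-3p, made from the Pank3 and Pank2 loci together, had 7554, 9381 and 10014 reads for sham P14, 8844, 9503 and 7864 for OIR P14 and 9666, 9940 and 8779 for OIR P29. Its groups overlapped throughout, at 727 ± 78.3, 681 ± 65.1 and 653 ± 72.1 CPM (SD, n = 3 each). The log2 fold was -0.07 ± 0.12 (SE, edgeR adjusted p = 0.871) at day 14 and -0.08 ± 0.11 (95% interval -0.34 to 0.18, adjusted p = 0.573) from OIR P14 to OIR P29. The latter was positive with library totals alone (0.19), without OIR P14 library 12 (0.01) and without OIR P29 library 47 (0.07). Against sham P14 the OIR P29 log2 fold was -0.13 ± 0.12 (SE, edgeR adjusted p = 0.419).

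Within a library, miR-103-3p had 4.46, 4.67 and 5.62 reads per read of miR-107-3p in sham P14, 4.84, 5.04 and 4.94 for OIR P14 and 3.78, 3.89 and 3.24 for OIR P29. The day 14 groups overlapped, with a mean log2 difference of 0.01 (exact permutation test, p = 1.0). In OIR P29 the ratio was 1.36 times lower than in OIR P14 and 1.35 times lower than in sham P14, below every day 14 library (exact permutation p = 0.1 each, the smallest the design allows). Leaving out any 1 library kept the log2 difference from OIR P14 between -0.50 and -0.37. miR-107-3p thus made up 17.02% ± 1.69 of the pair's counts in sham P14, 16.8% ± 0.288 for OIR P14 and 21.7% ± 1.70 for OIR P29 (SD, n = 3 each), while the sum of the pair was 876 ± 76.0, 818 ± 76.9 and 833 ± 75.5 CPM. Reads cut short at the 3′ end could have been given to either miRNA, so this split is uncertain. The part of such reads in the ratio was not tested.

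**Figure D4:**
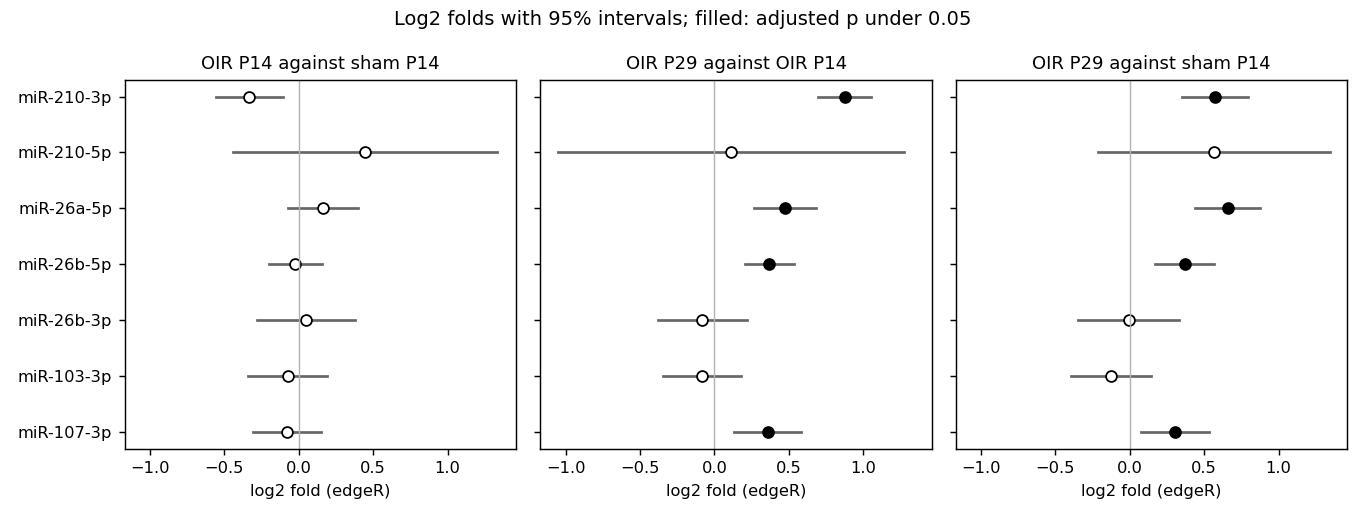
Log2 folds from edgeR (points, horizontal axis) with 95% intervals (lines) of the 7 miRNAs in each of the 3 comparisons; filled points have an adjusted p under 0.05. No point is filled for OIR P14 against sham P14, and miR-210-3p, miR-26a-5p, miR-26b-5p and miR-107-3p are filled in both comparisons with OIR P29.

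By level, the order was OIR P14, sham P14, OIR P29 for miR-210-3p, miR-26b-5p and miR-107-3p, and sham P14, OIR P14, OIR P29 for miR-26a-5p and miR-210-5p. For miR-103-3p the order was OIR P29, OIR P14, sham P14, and for miR-26b-3p it was OIR P29, sham P14, OIR P14. The 2 day 14 groups did not differ beyond the test's threshold for any of the 7. OIR P29 differed from both for miR-210-3p, miR-26a-5p, miR-26b-5p and miR-107-3p, and for miR-103-3p, miR-210-5p and miR-26b-3p no pair of groups passed the test. With library totals alone, under which the median over all miRNAs for OIR P29 against OIR P14 went from -0.01 to 0.25 (log2 fold), the same 4 were past the threshold at larger folds (0.63 to 1.14).

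Other miRNAs reported as raised by hypoxia in cultured cells, a list of 9 from the miR-23, miR-24, miR-27 and miR-181 families, were also compared. At day 14 edgeR, DESeq2 and limma-voom each called 0 of the 9, where edgeR called 1.69% of all miRNAs. In each tool 0 of the 9 had an unadjusted p under 0.05, where 9.16% of all miRNAs did in edgeR. The median log2 fold of the 9 was 0.00 against -0.03 over all miRNAs. From OIR P14 to OIR P29 edgeR called 4 higher, where 22.9% of all miRNAs were, and 2 lower, where 23.8% were. Their median log2 fold was 0.11 for the 9 against -0.01 over all miRNAs. miR-27a-3p, which like miR-23a-3p and miR-24-3p belongs to an endothelium-rich cluster, rose from 55.2 ± 6.01 to 96.02 ± 7.89 CPM (log2 fold 0.78 ± 0.11 SE, edgeR adjusted p = 0.00156). miR-23a-3p rose from 20.9 ± 0.878 to 37.1 ± 7.66 CPM (log2 fold 0.80 ± 0.15, adjusted p = 0.00407). miR-181c-5p fell from 5518 ± 313 to 4094 ± 63.7 CPM (log2 fold -0.45 ± 0.07, adjusted p = 0.00156), and miR-181d-5p fell from 513 ± 57.3 to 348 ± 33.4 CPM (-0.58 ± 0.12, adjusted p = 0.00497; SD, n = 3 for each level). Against sham P14, 4 of the 9 were called higher, where 18.4% of all miRNAs were, and 2 lower, where 21.9% were, with a median log2 fold of 0.17 against -0.02 over all miRNAs.

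Of 12 miRNAs known to act on HIF1A or on regulators of HIF, 11 passed the filter on low counts. At day 14 edgeR, DESeq2 and limma-voom each called 0 of them, where edgeR called 1.69% of all miRNAs. In edgeR 1 of the 11 had an unadjusted p under 0.05, a share near the 9.16% over all miRNAs. That 1, miR-322-5p, stood at 20.99 ± 1.49 CPM for sham P14 and 14.2 ± 1.07 CPM for OIR P14 (SD, n = 3 each; log2 fold -0.54 ± 0.12 SE, edgeR adjusted p = 0.0969). From OIR P14 to OIR P29, 2 of 11 were called higher and 3 lower, close to the 22.9% and 23.8% over all miRNAs, with a median log2 fold of -0.01, the same at this precision as over all miRNAs. miR-22-3p rose from 5614 ± 389 to 8855 ± 203.1 CPM and miR-338-3p from 72.04 ± 5.77 to 130 ± 20.5 CPM (SD, n = 3 each). The 3 that fell, miR-18a-5p (log2 fold -1.85), miR-17-5p (-1.15) and miR-20a-5p (-1.25), come from the proliferation-linked miR-17 to miR-92a cluster, with edgeR adjusted p from 0.000509 to 0.00237. Against sham P14, 3 of the 11 were called higher and 5 lower in OIR P29, where 18.4% and 21.9% of all miRNAs were. The median log2 fold was -0.48 against -0.02 over all miRNAs. Among the 3 higher was miR-31a-5p, at 50.3 ± 31.5 CPM in OIR P29 (SD, n = 3). Its level in library 47 lay at a log2 ratio of 1.42 above the mean of libraries 20 and 21. DESeq2 called 7 in all, without miR-199a-5p (edgeR log2 fold -0.76 ± 0.25 SE, adjusted p = 0.0395).

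Some relatives of miR-103 and miR-107 have a seed shifted by 1 base. The base string AGCAGCA stands at positions 1 to 7 of miR-103-3p and miR-107-3p and at positions 2 to 8 of these relatives, of which miR-16-5p is shown, with its seed in capitals.
miR-16-5p: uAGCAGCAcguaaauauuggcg
Of 6 relatives measured, 5 had this seed in the RefSeq table, and miR-15a-5p was not looked up elsewhere. From OIR P14 to OIR P29, 2 of the 6 were called higher and 2 lower, where 22.9% and 23.8% of all miRNAs were. miR-16-5p fell from 2856 ± 130 to 1880 ± 156 CPM (log2 fold -0.63 ± 0.09 SE, edgeR adjusted p = 0.00129) and miR-15b-5p from 78.5 ± 8.05 to 31.8 ± 5.25 CPM (-1.32 ± 0.13, adjusted p = 0.000253). In the other direction miR-195-5p rose from 11.6 ± 2.60 to 21.8 ± 1.49 CPM and miR-497-5p from 8.83 ± 0.494 to 14.1 ± 0.543 CPM (SD, n = 3 for each level). The other 2 of the 6 were not called. At day 14 edgeR, DESeq2 and limma-voom each called 0 of the 6, where edgeR called 1.69% of all miRNAs. In each tool 2 of the 6 had an unadjusted p under 0.05, where 9.16% of all miRNAs did in edgeR. These 2, miR-195-5p and miR-322-5p, were lower in OIR P14 than in sham P14 (edgeR log2 folds of -0.49 and -0.54). Against sham P14, 1 was called higher and 3 lower in OIR P29, where 18.4% and 21.9% of all miRNAs were.

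The miRNAs most like each member were ranked by the root mean square difference of log2 CPM over the 9 libraries after centring each miRNA on its own mean, among 403 candidates. Nearest to miR-210-3p was miR-497-5p, at 0.132 where the median candidate stood at 0.468, followed by miR-328a-3p (0.154) and miR-1843a-5p (0.161). miR-497-5p had 11.1 ± 1.68 CPM for sham P14, 8.83 ± 0.494 for OIR P14 and 14.1 ± 0.543 for OIR P29 (SD, n = 3 each), the same order of groups. Nearest to miR-26a-5p were miR-339-3p (0.0865), miR-22-3p (0.0975) and miR-27b-3p (0.108), with a median candidate at 0.417. Nearest to miR-26b-5p were miR-384-5p (0.0694), miR-330-5p (0.0824) and miR-27b-3p (0.0904), so that miR-27b-3p was among the 3 nearest for both copies of miR-26. Nearest to miR-107-3p were miR-361-3p (0.0871), miR-330-5p (0.0891) and miR-140-3p (0.0921), and nearest to miR-103-3p were miR-211-3p (0.0949), miR-873-5p (0.116) and miR-151-3p (0.124). The 3 nearest of miR-103-3p and the 3 nearest of miR-107-3p had no name in common. These distances describe 9 libraries that share their groups and normalization.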

How the data were processed

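Libraries were sequenced as 50 bp single-end reads, on an Illumina HiSeq, whose model differs between the labels and the series text. The authors deposited 2 tables of raw counts per mature miRNA, per the file headers, with their own log2 folds and false discovery rates (adjusted p-values); limma, without version, is named per the submitters' processing notes. Trimming, aligner, counter and build: not given in the sources used here. OIR P14 counts stand in both tables and were identical (1395 of 1395), so the 12 columns hold 9 libraries. Groups were deduced from the tables in which a library code stands.

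All miRNAs of the 6 libraries of a comparison entered 1 fit: edgeR 4.0.16 in R 4.3.3, TMM, filterByExpr (minimum count 10, minimum total 15), quasi-likelihood F test, Benjamini-Hochberg, called at adjusted p under 0.05. The SE is the log2 fold over the square root of F. OIR P29 against sham P14 joins raw counts of both tables. All 7 members passed the filter. Tried besides were library totals alone, DESeq2 1.42.0 and its size factors, limma-voom (limma 3.58.1), no filter, all 9 libraries together and each library left out. The fit was also run on counts simulated from dispersions estimated on these data, which cannot test how well the model suits them. Ratios were tested with scipy 1.17.1. The members, lists and the rule for named miRNAs (members, the 3 nearest of each of 5 main members, smallest p in each list) were chosen with earlier results of these data known. Some miRNAs outside this rule are named too, among them miR-20a-5p, miR-31a-5p and miR-199a-5p from the lists.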

Additional observations from a re-analysis of the deposited data

How the results depend on the processing

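Members called were 0 under each of 12 alternatives at day 14, 4 under each of 13 for OIR P29 against OIR P14, and 3 to 5 when each library was left out for OIR P29 against sham P14, where miR-107-3p (log2 fold 0.25 to 0.40) lost its call without libraries 25, 51 or 20 and miR-210-5p gained one without library 21. Over all miRNAs at day 14, DESeq2 called 12 against 7, and leaving out a library gave 1 (without sham P14 library 27 or 51) to 7. No paired analysis was possible because the columns carry library codes and not the replicate numbers of the labels. Some uncalled log2 folds changed sign, among them that of miR-210-5p at day 14, which was 0.45 ± 0.39 (SE) in the main fit. With library totals alone, the sign changed for miR-26a-5p (-0.024) and miR-26b-3p (-0.14) at day 14. It also changed for miR-26b-3p (0.19) and miR-103-3p (0.19) for OIR P29 against OIR P14. For OIR P29 against sham P14, miR-26b-3p turned positive with DESeq2 size factors (0.028), totals alone (0.058), DESeq2 (0.032) and all 9 libraries together (0.021). Leaving out each library in turn, the day 14 log2 fold ran from -0.11 to 0.80 for miR-210-5p, from -0.036 to 0.0011 for miR-26b-5p and from -0.14 to 0.035 for miR-103-3p. For OIR P29 against OIR P14 it ran from -0.38 to 0.65 for miR-210-5p and from -0.16 to 0.066 for miR-103-3p. For OIR P29 against sham P14 it ran from -0.0082 to 0.089 for miR-26b-3p and from -0.21 to 0.023 for miR-103-3p. The log2 ratio difference ran from -0.052 to 0.11 for miR-103-3p over miR-107-3p at day 14, and from -0.21 to 0.59 for the miR-210 arms in OIR P29 against sham P14. The cause was not tested. Groups of 3 libraries limit every p, and low counts limit miR-210-5p and miR-26b-3p.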
